A study of Mus musculus with 12 samples.

Results

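The genes described here are the nuclear genes of oxidative phosphorylation, 88 of the 18820 genes measured. A gene was included where its symbol starts with Ndufa, Ndufb, Ndufc, Ndufs, Ndufv, Uqcr, Cox4, Cox5, Cox6, Cox7, Cox8 or Atp5, or is Sdha, Sdhb, Sdhc or Sdhd. Each gene was read from 1 probe set annotated to it alone, the brightest where it had several. Of the 88, 23 had several, and of their 32 other probe sets 29 had a log2 change below 0 with MTX in KO mice, as their brightest did. By symbol, 34 genes were counted as subunits of complex I, 4 of complex II, 7 of complex III, 11 of complex IV and 17 of complex V. Together these are the 73 common subunits, the forms that most tissues share. Ndufa4 is counted with complex IV, not with complex I where its symbol would place it. Cox7a2l is counted with complex IV by its symbol, though it encodes a factor that joins complexes III and IV. Another 8 are forms of subunits known mainly from particular tissues, and the remaining 7, all with symbols starting with Ndufaf, help to build complex I without being part of it.

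RNA of the proximal jejunum of 12 mice was hybridised to Affymetrix arrays, 1 array per mouse and 3 mice per group. The groups were TLR2 knockout mice (KO, B6.129-Tlr2tm1Kir/J) given methotrexate (MTX), KO mice with no treatment, wild-type mice (WT, C57BL6/J) given MTX, and WT mice with no treatment. MTX, an antifolate that blocks DNA synthesis and injures the gut lining, was given intraperitoneally at 40 mg per kg body weight per day for 4 days, and the treated mice were killed on day 7. Neither a control injection nor a day of sampling is recorded for untreated mice, and no ages are given, so the drug, the injections and the day cannot be told apart. The knockout is germline, so every cell type of the tissue carries it. KO and WT mice are of differently named strains. The Tlr2 change and any other difference between those strains therefore cannot be told apart. Values are log2 signals, and no detection calls were used.

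Some facts of the arrays touch the results. The 1 probe set for Tlr2 was not lower in arrays labelled KO. It read 6.18, 5.46 and 5.28 in MTX-treated KO arrays, 4.36, 5.02 and 5.01 in untreated KO arrays, 4.49, 4.65 and 4.51 in MTX-treated WT arrays and 4.37, 4.65 and 4.38 in untreated WT arrays. Whether its target was left intact by the knockout is not given, so genotypes are as labelled. RNA of the exocrine pancreas was present in 7 arrays, where the mean of 10 acinar genes was 12.07 to 12.61, and not in the other 5, where it was 3.95 to 5.42. The 5 arrays were replicate 1 of every group and replicate 3 of MTX-treated WT mice. Of 12 enterocyte genes, all were lower in MTX-treated than in untreated KO mice; the array means of the list were 6.38, 7.43 and 8.36 in MTX-treated KO mice, against 11.39 to 11.53 in untreated KO mice. It was 11.31 to 11.66 in MTX-treated WT mice and 11.59 to 11.63 in untreated WT mice. All 8 fibroblast genes were higher, with array means of 9.79 to 9.88 in MTX-treated KO mice and 7.75 to 8.18 in untreated KO mice. Of 8 genes of epithelium in general, 5 were lower and 1 was higher. Their array means were 10.28 to 10.55 in MTX-treated KO mice and 10.70 to 11.03 in untreated KO mice. Of 8 immune genes, 4 were higher and 2 lower in MTX-treated than in untreated KO mice, with a median log2 change of 0.78. Among all genes, 16% were called lower and 18.8% higher in that comparison. In whole tissue, fewer cells of a type and less RNA per cell cannot be told apart, and the part of cell composition in the results below was not tested.

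Oxidative phosphorylation makes most of a cell's ATP. Complexes I and II of the inner mitochondrial membrane take electrons from NADH and succinate, complex III passes them to cytochrome c, complex IV hands them to oxygen, and complex V, the ATP synthase, uses the proton gradient that results. Most subunits are encoded in the nucleus and a few in mitochondrial DNA. Absorptive enterocytes are rich in mitochondria, which fuel nutrient uptake and lipid export.

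The promoters of the genes were searched for short sequence elements of 5 kinds. RefSeq promoter windows of GRCm38.p6, which begin upstream of the gene start and end shortly after it, were matched for 63 of the 73 common subunits and for 14739 of the 18820 genes. The letters CGCANGCG, the element of NRF1 (nuclear respiratory factor 1), were found on either strand in 41.3% of the matched common subunits (26 of 63), against 13.7% of all matched genes. The ETS element CCGGAAG, read by GABPA among others, was in 27.0% of the common subunits and in 13.7% of all genes. AAGATGGCG, the element of YY1, was in 11.1% and 2.33%, and TNAAGGTCA, that of the estrogen-related receptors (ERR), in 4.76% and 1.15%. GGGCGG, the Sp1 element, was in 41.3% of the common subunits and in 53.4% of all genes. None of these 5 sets of letters contains another.

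The windows shown are those of the 3 genes with the largest falls in MTX-treated KO mice among members with a promoter that could be printed, Cox7a1, Ndufc1 and Sdhb. Sdhd is added as the common subunit with the largest fall whose window holds the NRF1 letters, and the 3 genes of ATP synthase subunit c because only 2 of them fell. Capitals mark matches to the 5 elements on either strand, and all are printed 5′ to 3′ along the gene's strand. Cox7a1 lies at chr7:30183921-30184220 on the plus strand, Ndufc1 at chr3:51408906-51409205 on the minus strand, Sdhb at chr4:140961021-140961320 on the plus strand and Sdhd at chr9:50603800-50604099 on the minus strand. Atp5g1 is at chr11:96075582-96075881, Atp5g2 at chr15:102670998-102671297 and Atp5g3 at chr2:73911277-73911576, all on the minus strand.
Cox7a1: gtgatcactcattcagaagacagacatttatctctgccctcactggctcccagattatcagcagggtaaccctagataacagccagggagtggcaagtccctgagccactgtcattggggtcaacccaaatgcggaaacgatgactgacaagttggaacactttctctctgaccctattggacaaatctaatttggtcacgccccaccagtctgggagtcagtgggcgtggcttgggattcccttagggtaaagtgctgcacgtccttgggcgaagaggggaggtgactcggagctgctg
Ndufc1: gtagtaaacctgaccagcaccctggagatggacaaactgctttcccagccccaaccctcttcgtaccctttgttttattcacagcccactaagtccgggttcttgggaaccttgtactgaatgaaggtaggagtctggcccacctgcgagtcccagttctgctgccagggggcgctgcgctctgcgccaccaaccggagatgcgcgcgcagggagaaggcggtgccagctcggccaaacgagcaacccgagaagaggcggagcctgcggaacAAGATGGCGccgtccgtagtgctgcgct
Sdhb: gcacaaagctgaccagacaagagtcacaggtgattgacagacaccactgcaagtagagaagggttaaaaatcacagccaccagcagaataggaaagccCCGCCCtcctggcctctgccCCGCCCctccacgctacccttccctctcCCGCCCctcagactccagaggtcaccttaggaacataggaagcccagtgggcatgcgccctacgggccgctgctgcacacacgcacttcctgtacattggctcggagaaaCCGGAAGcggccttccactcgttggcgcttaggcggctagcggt
Sdhd: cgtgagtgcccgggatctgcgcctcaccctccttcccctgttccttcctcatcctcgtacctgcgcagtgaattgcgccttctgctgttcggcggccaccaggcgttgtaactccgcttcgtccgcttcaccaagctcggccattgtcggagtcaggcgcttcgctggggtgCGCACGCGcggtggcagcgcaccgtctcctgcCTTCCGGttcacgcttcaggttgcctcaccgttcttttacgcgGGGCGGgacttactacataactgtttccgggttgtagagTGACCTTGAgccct
Atp5g1: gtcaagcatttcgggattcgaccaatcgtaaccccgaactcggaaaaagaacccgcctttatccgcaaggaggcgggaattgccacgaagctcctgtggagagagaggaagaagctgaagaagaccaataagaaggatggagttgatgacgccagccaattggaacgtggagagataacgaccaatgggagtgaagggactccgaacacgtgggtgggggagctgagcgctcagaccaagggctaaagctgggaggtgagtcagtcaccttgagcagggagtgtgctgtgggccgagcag
Atp5g2: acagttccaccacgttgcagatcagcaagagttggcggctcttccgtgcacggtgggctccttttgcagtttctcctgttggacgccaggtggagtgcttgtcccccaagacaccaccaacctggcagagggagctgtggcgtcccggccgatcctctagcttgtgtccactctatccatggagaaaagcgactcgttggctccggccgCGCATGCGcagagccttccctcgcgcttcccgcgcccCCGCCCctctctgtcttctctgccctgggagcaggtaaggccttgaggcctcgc
Atp5g3: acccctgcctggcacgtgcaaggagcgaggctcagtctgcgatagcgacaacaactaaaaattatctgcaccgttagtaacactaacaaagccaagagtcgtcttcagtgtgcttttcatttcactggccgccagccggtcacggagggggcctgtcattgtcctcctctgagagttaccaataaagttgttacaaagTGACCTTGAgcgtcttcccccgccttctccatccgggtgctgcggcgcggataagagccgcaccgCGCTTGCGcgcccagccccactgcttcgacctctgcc

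The Cox7a1 and Atp5g1 windows held none of the 5 elements and the Ndufc1 window 1 YY1 match. Sdhb had 1 ETS and 3 Sp1 matches, Sdhd 1 match each to NRF1, ETS, Sp1 and ERR, Atp5g2 1 to NRF1 and 1 to Sp1, and Atp5g3 1 to NRF1 and 1 to ERR. In MTX-treated against untreated KO mice, the median log2 change of the common subunits was -0.72 over the 26 genes with the NRF1 letters and -0.67 over the 37 genes without. With and without the letters, the medians were -0.70 over 17 genes and -0.69 over 46 for ETS, -0.89 over 7 and -0.64 over 56 for YY1, -0.81 over 3 and -0.64 over 60 for ERR, and -0.62 over 26 and -0.72 over 37 for Sp1. These are descriptions of letters in a window, with no test and nothing said of the factors.

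In KO mice, MTX was followed by lower signal of genes of all 5 complexes. Of the 88 genes, 68 fell and 1 rose, and 19 did not pass the test (limma, adjusted p under 0.05 over all genes). Over all genes, 16% were called lower and 18.8% higher. The calls lower covered 65 of the 73 common subunits and none of these was called higher. Their median log2 change was -0.67, against -0.02 over all genes, and 71 of the 73 were below 0. The mean log2 signal of the 73 subunits was 8.92, 8.66 and 8.73 in MTX-treated KO arrays, against 9.42, 9.45 and 9.47 in untreated KO arrays. It was 9.72, 9.66 and 9.69 in MTX-treated WT arrays and 9.41, 9.44 and 9.49 in untreated WT arrays. Thus the 3 treated KO arrays were the lowest of the 12 and the 3 treated WT arrays the highest. Among single genes, all 3 MTX-treated KO arrays lay below all 3 untreated KO arrays in 70 of the 88, and in 65 of the 73 common subunits, against 21.6% of all genes.

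**Figure D1:**
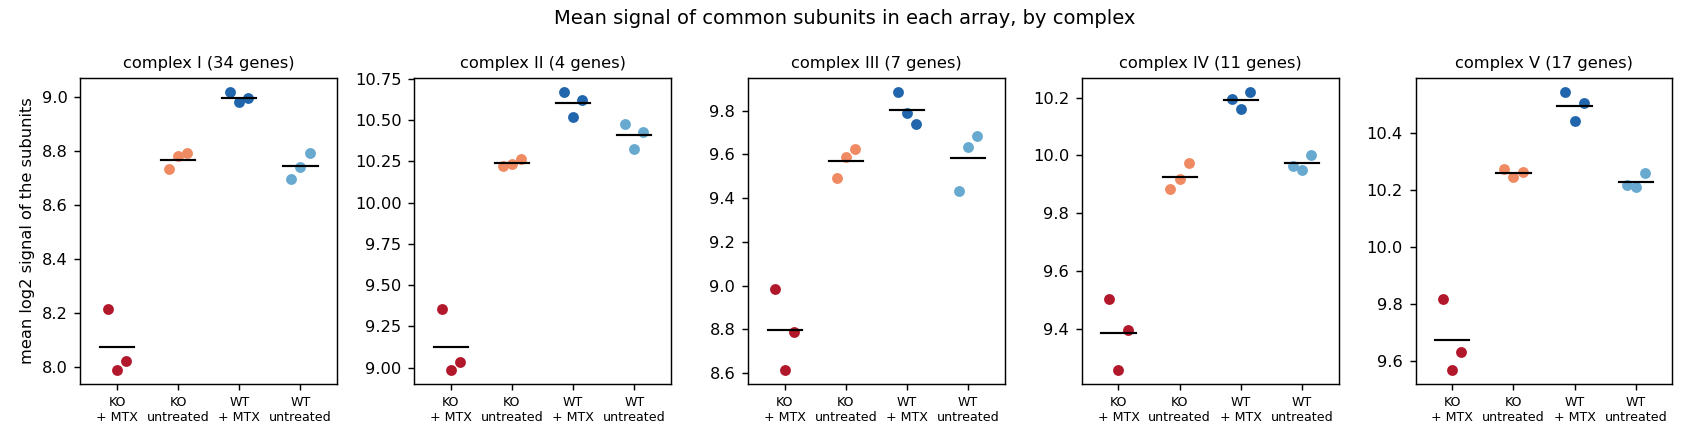
Mean log2 signal of the common subunits of each complex (vertical axis, a scale per panel that does not start at 0) in each of the 12 arrays, by group, with a line at the group mean. In every panel the 3 MTX-treated KO arrays lie below the other 9, and in the panel of complex I they read 8.21, 7.99 and 8.02.

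The array of MTX-treated KO replicate 1 had the highest mean of the common subunits in its group (8.92), the lowest enterocyte mean (6.38) and no pancreatic RNA. Within the 7 arrays that held pancreatic RNA, 69 of the 88 genes were called lower in KO mice, against 18.7% of all genes in that fit, with a median over the 88 genes of -0.69. Within the 5 arrays without it, the KO comparison is 1 array against 1 and rests on 1 residual degree of freedom; 26 of the 88 genes were called lower there, against 12.3% of all genes in that fit, and the median was -0.47.

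Complex I takes electrons from NADH and is the largest complex. Of its 34 genes 29 fell, with a median log2 change of -0.74. The class mean was 8.21, 7.99 and 8.02 in MTX-treated KO arrays and 8.73, 8.78 and 8.79 in untreated KO arrays. Ndufc1, an accessory subunit of the membrane arm, had 7.76, 7.54 and 7.53 in MTX-treated KO arrays, against 8.86, 8.78 and 9.04 in untreated KO arrays. Its 3 treated KO arrays were the lowest of all 12, and it fell by 1.28 ± 0.17 on the log2 scale (SE; limma adjusted p = 9.35e-05). Ndufv1, the flavoprotein subunit that binds NADH, had 9.05, 9.03 and 9.04 in MTX-treated KO arrays, against 9.85, 9.96 and 9.77 in untreated KO arrays. The treated values lay within 0.02 of each other and below every other array, and Ndufv1 fell by 0.82 ± 0.10 (limma adjusted p = 4.75e-05).

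Ndufs6, a zinc-binding subunit, had 7.90, 7.61 and 7.75 in MTX-treated KO arrays, against 8.61, 8.75 and 8.89 in untreated KO arrays. It fell without overlap and with the smallest p of the class (limma adjusted p = 2.79e-05). Ndufa2, an accessory subunit, had 8.03, 6.94 and 7.07 in MTX-treated KO arrays, against 8.63, 8.58 and 8.48 in untreated KO arrays. Replicate 1 of the treated KO mice stood apart from the other 2 yet remained below all untreated KO arrays, and Ndufa2 fell by 1.22 ± 0.22 (limma adjusted p = 0.00116). Ndufs1, the largest iron-sulfur subunit, had 8.18, 7.48 and 7.28 in MTX-treated KO arrays, against 8.35, 8.37 and 8.33 in untreated KO arrays. It showed the same order, with replicate 1 nearest to the untreated arrays, and fell by 0.70 ± 0.19 (limma adjusted p = 0.0127). Without replicate 2 of the treated KO mice its adjusted p was 0.0521, and it was 0.0659 with only the groups compared in the fit.

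The 5 complex I genes that did not pass the test were Ndufc2, Ndufb6, Ndufs4, Ndufa7 and Ndufb10, with log2 changes of -0.23, -0.29, -0.29, -0.32 and -0.46. All are below 0, and for the last 3 the names were chosen after their values were seen. Ndufc2, an accessory subunit, had 11.10, 10.77 and 10.66 in MTX-treated KO arrays and 11.26, 10.99 and 10.96 in untreated KO arrays, and the groups overlap.

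Complex II, succinate dehydrogenase, is also an enzyme of the citric acid cycle, and its 4 genes had the largest median fall of the 5 complexes, -1.08. Sdhb, the iron-sulfur subunit, had 8.77, 8.66 and 8.81 in MTX-treated KO arrays, against 9.90, 9.95 and 10.05 in untreated KO arrays. It had 10.52, 10.23 and 10.20 in MTX-treated WT arrays, against 10.32, 10.15 and 10.24 in untreated WT arrays. The treated KO arrays thus stood apart from the 9 others, at 9.90 to 10.52, and Sdhb fell by 1.22 ± 0.11 in KO mice (limma adjusted p = 5e-06), a 2.33-fold difference. Sdha, the flavoprotein that oxidises succinate, fell by 1.08 ± 0.13, and the membrane anchors Sdhc and Sdhd fell by 1.07 ± 0.12 and 1.08 ± 0.14. The 4 changes lay between -1.22 and -1.07, and differences among them were not tested.

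All 7 genes of complex III fell, with a median of -0.72. Uqcrfs1, the Rieske iron-sulfur protein, had 6.92, 6.20 and 6.42 in MTX-treated KO arrays, against 7.52, 7.79 and 7.52 in untreated KO arrays. There was no overlap, and it fell by 1.10 ± 0.18 (limma adjusted p = 0.000585). Uqcr11, a small accessory subunit, fell by 1.01 ± 0.18, the core protein Uqcrc1 by 0.84 ± 0.14 and the accessory Uqcr10 by 0.61 ± 0.14. Uqcrq, another small subunit, had the least change of the class, a fall by 0.50 ± 0.11 (limma adjusted p = 0.00454).

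In complex IV, cytochrome c oxidase, 10 of 11 genes fell and the median was -0.58. Cox6a1, the form of its subunit found in most tissues, fell by 0.86 ± 0.16, Cox5a by 0.78 ± 0.14 and Cox4i1 by 0.64 ± 0.12; all 3 encode nuclear subunits around the catalytic core. Cox5b, which binds zinc, had 10.37, 10.36 and 10.43 in MTX-treated KO arrays, against 10.99 to 11.01 in untreated KO arrays. These groups were tight and apart, and Cox5b fell by 0.61 ± 0.09 (limma adjusted p = 0.00025). Cox6c had the smallest fall that passed, 0.43 ± 0.09. The exception was Cox7a2l, which encodes a factor that joins complexes III and IV into supercomplexes. It had 7.50, 7.20 and 7.73 in MTX-treated KO arrays and 7.01, 7.35 and 7.46 in untreated KO arrays, so the groups overlap (log2 change 0.20 ± 0.15, limma adjusted p = 0.361).

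Of the 17 genes of complex V, 15 fell, with a median of -0.61. Atp5e, the epsilon subunit at the foot of the catalytic part, had 7.55, 7.40 and 7.69 in MTX-treated KO arrays, against 8.45, 8.64 and 8.62 in untreated KO arrays. All treated KO arrays were lower, and Atp5e fell by 1.02 ± 0.11 (limma adjusted p = 3.28e-05). Atp5j2, a membrane subunit, fell by 0.90 ± 0.10 and Atp5o, which links the head to the stalk, by 0.85 ± 0.10. Of the subunits that form the catalytic sites, Atp5a1, the alpha subunit, fell by 0.47 ± 0.10 and Atp5b, the beta subunit, by 0.42 ± 0.09. Quantile normalisation of the arrays took away 16 of the 69 calls over the 88 genes in KO mice. Among them were both of these calls and those of Cox6c, Uqcrq and the complex I gene Ndufa8 (limma adjusted p of 0.0782 to 0.251). The median log2 change of the 88 genes was then -0.46, against -0.61 without it.

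Subunit c forms the rotating ring of the ATP synthase. It is encoded by 3 genes, Atp5g1, Atp5g2 and Atp5g3, whose proteins are known to differ in the targeting peptide that is removed and to give the same mature subunit. Atp5g1 had 10.92, 10.89 and 10.95 in MTX-treated KO arrays, against 11.41, 11.57 and 11.60 in untreated KO arrays. Atp5g3 had 10.24, 9.94 and 9.81 in MTX-treated KO arrays, against 10.84, 10.75 and 10.83 in untreated KO arrays. Both were lower in every treated KO array, by 0.61 ± 0.10 and 0.81 ± 0.12 (limma adjusted p = 0.000538 and 0.000246). Atp5g2 had 11.07, 10.94 and 11.01 in MTX-treated KO arrays, against 11.03, 10.91 and 10.98 in untreated KO arrays. Here the arrays overlap almost fully, and its log2 change was 0.03 ± 0.08 (limma adjusted p = 0.799). Its 3 probe sets gave log2 changes of 0.03, 0.00 and 0.05. Whether the change of Atp5g2 differs from that of its paralogues was not tested.

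**Figure D2:**
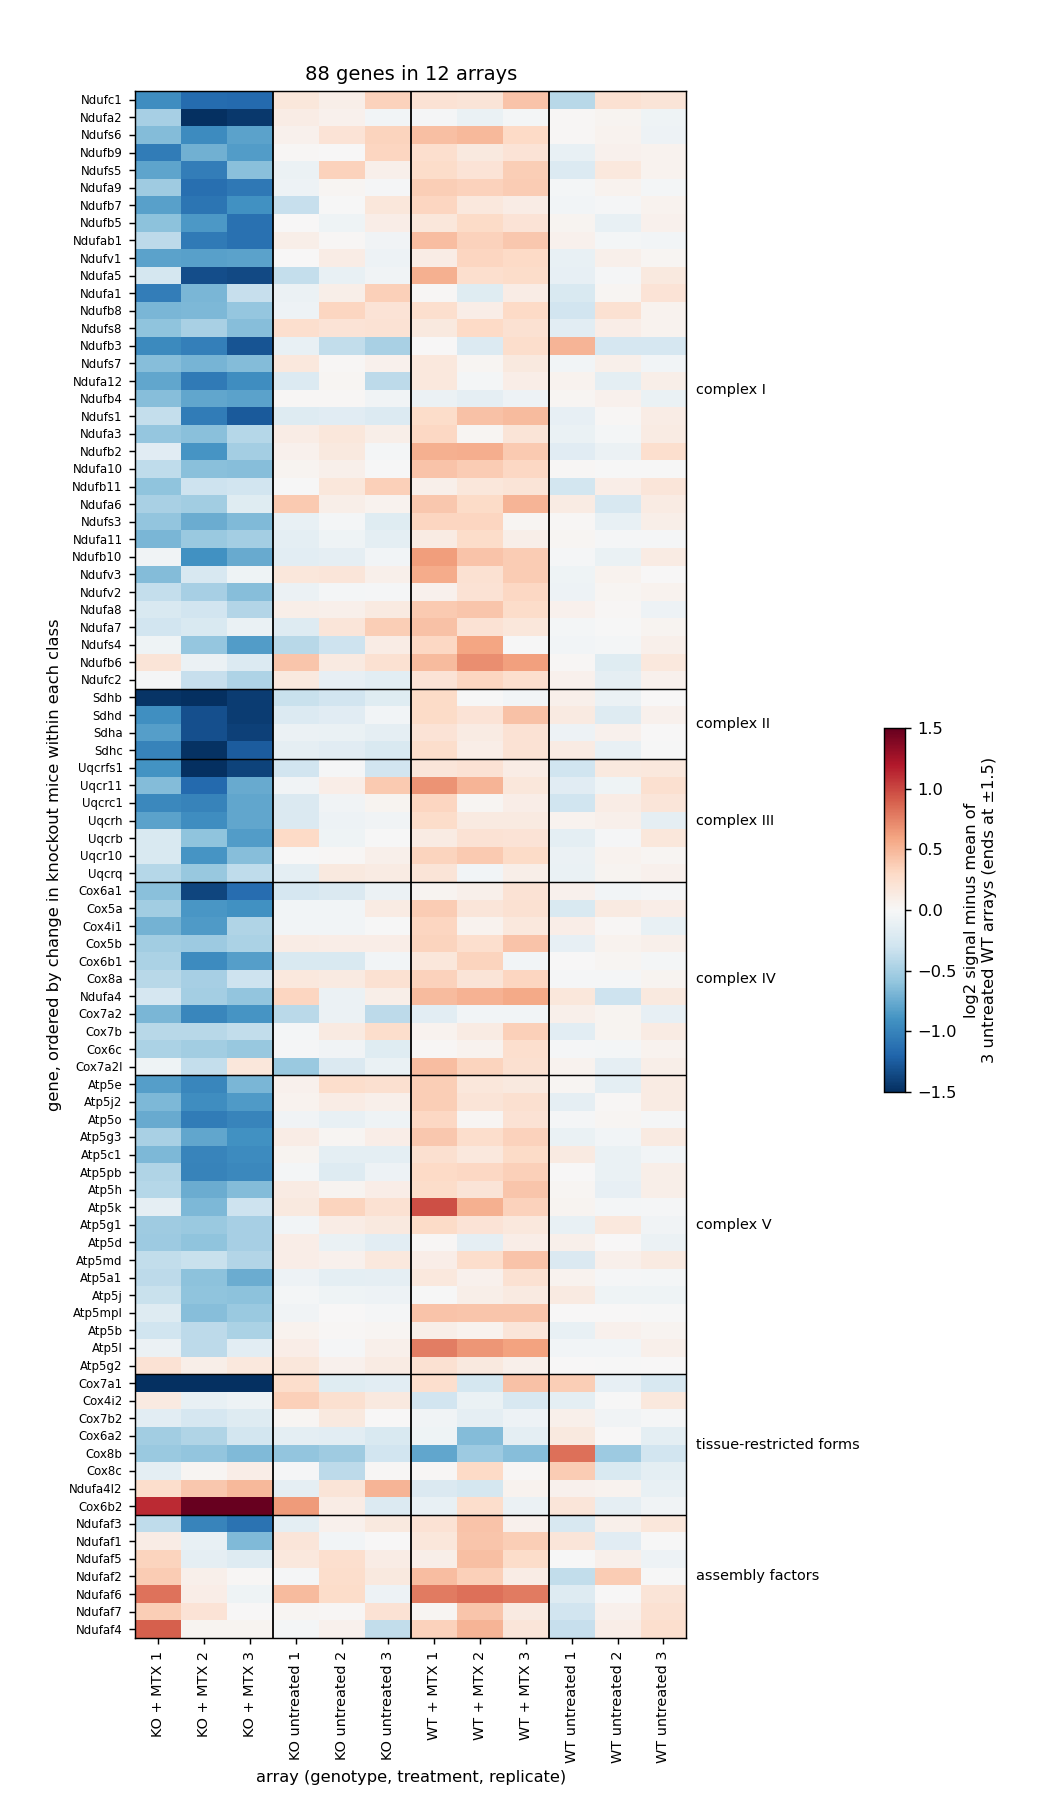
Log2 signal of each of the 88 genes (rows, by class) in each of the 12 arrays (columns) minus the mean of that gene in the 3 untreated WT arrays; colours end at ±1.5. Most rows of complexes I to V are blue in the MTX-treated KO arrays and pale red in the MTX-treated WT arrays, and Atp5g2 and the assembly factors other than Ndufaf3 are not blue across the treated KO arrays.

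The tissue-restricted forms were uneven. Of 8 such genes 2 fell, 1 rose and 5 did not pass the test in MTX-treated KO mice, and the class median was -0.19. Among all genes, 16% were called lower and 18.8% higher in that comparison. Whether the class differs from all genes was not tested. Cox7a1, the form of subunit VIIa known from heart and skeletal muscle, had 5.35, 5.33 and 5.31 in MTX-treated KO arrays, against 10.35, 9.90 and 9.92 in untreated KO arrays. It had 10.34, 9.82 and 10.53 in MTX-treated WT arrays, against 10.45, 9.96 and 9.84 in untreated WT arrays. The 9 other arrays thus lay within 1 log2 unit of each other and the treated KO arrays far below them, with a fall by 4.73 ± 0.20 in KO mice (limma adjusted p = 3.53e-08), or 26.5-fold. This was the largest change of the 88 genes in either direction. Cox7a2, the form found in most tissues, fell by 0.55 ± 0.12 (limma adjusted p = 0.00334). The mean of 8 striated muscle genes was 3.58 to 3.77 in MTX-treated KO arrays and 3.79 to 3.98 in the other 9, and 1 of them, Ckm, fell by 1.54. The mean of 8 smooth muscle genes was 9.14 to 9.17 in MTX-treated KO arrays and 8.35 to 9.26 in untreated KO arrays, with 2 called higher. The part of either cell type in the change of Cox7a1 was not tested.

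Cox6b2, the form of subunit VIb known from testis, had 5.44, 5.97 and 6.20 in MTX-treated KO arrays, against 4.96, 4.43 and 4.12 in untreated KO arrays. It had 4.21, 4.59 and 4.23 in MTX-treated WT arrays, against 4.50, 4.19 and 4.27 in untreated WT arrays. All 3 treated KO arrays were the highest of the 12, and Cox6b2 rose by 1.37 ± 0.23 in KO mice (limma adjusted p = 0.000703). Within the 5 arrays without pancreatic RNA its log2 change was 0.49 (adjusted p = 0.102), and within the 7 others it was 1.81. Cox6b1, its common counterpart, had 10.26, 9.79 and 9.91 in MTX-treated KO arrays, against 10.51, 10.51 and 10.70 in untreated KO arrays. It fell by 0.59 ± 0.14 (limma adjusted p = 0.00552), so the 2 forms of this subunit changed in opposite directions.

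The other restricted forms had low signals, as Cox6b2 had outside the MTX-treated KO arrays. Cox7b2, known from testis, had 2.07, 1.97 and 2.03 in MTX-treated KO arrays and 2.25, 2.38 and 2.23 in untreated KO arrays. It fell by 0.26 ± 0.09 (limma adjusted p = 0.0315), a call lost without replicate 2 of the untreated KO mice (adjusted p = 0.119), without replicate 2 or 3 of the treated KO mice (0.0991 and 0.0632), with the replicate number as a block (0.0592) and with only the groups compared in the fit (0.0959). Log2 changes were -0.27 ± 0.11 for Cox4i2, known from lung, -0.24 ± 0.15 for Cox6a2, a muscle form, -0.13 ± 0.27 for Cox8b, known from muscle and brown fat, and 0.12 ± 0.17 for Cox8c, known from testis. None of these 4 passed the test. Cox8b was 5.16 in replicate 1 of the untreated WT mice and 3.54 to 4.04 in the other 11 arrays. That array also had the highest mean of 8 adipocyte genes, 6.01, against 3.92 to 4.52 elsewhere.

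**Figure D3:**
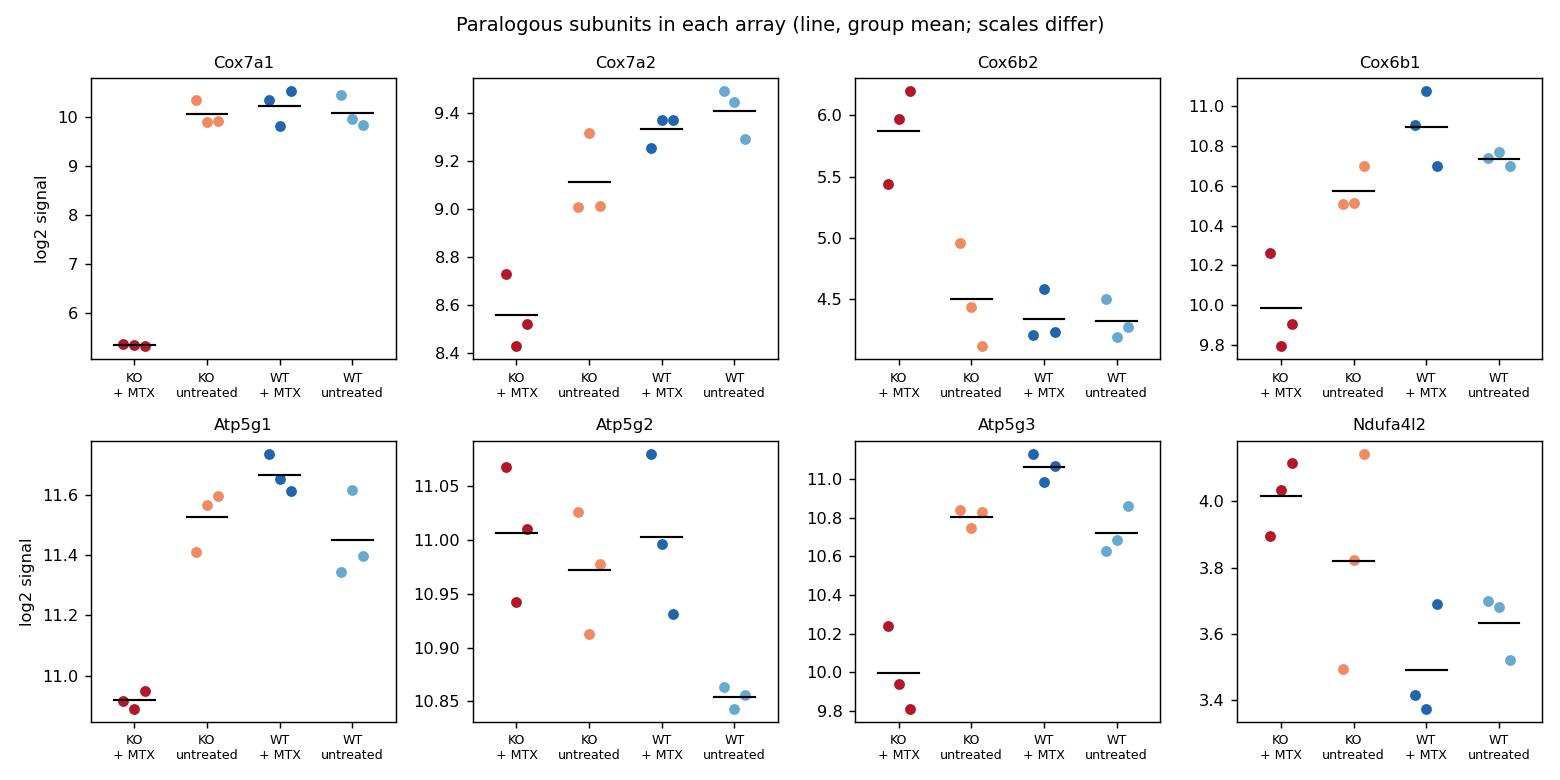
Log2 signal (vertical axis, a scale per panel that does not start at 0) of 8 paralogous subunit genes in each of the 12 arrays, by group, with a line at the group mean. Cox7a1 reads 5.31 to 5.35 in the MTX-treated KO arrays and 9.82 to 10.53 elsewhere, Cox6b2 is highest there, and Atp5g2 overlaps between the groups of KO mice.

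Of the 7 complex I assembly factors, 1 fell in KO mice, against 16% of all genes, and the class median was 0.03. Ndufaf3, which acts early in assembly, had 7.36, 6.75 and 6.63 in MTX-treated KO arrays, against 7.60, 7.80 and 7.89 in untreated KO arrays. It was lower in all treated KO arrays and fell by 0.85 ± 0.19 (limma adjusted p = 0.00452). The other 6 had log2 changes between -0.26 for Ndufaf1 and 0.44 for Ndufaf4, and their groups overlap.

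In WT mice given the same dose of MTX, 68 of the 73 common subunits had log2 changes above 0, nearly all short of the threshold. Of the 88 genes 1 rose and none fell, while 0.0425% of all genes were called higher and 0.0319% lower. The gene was Atp5l, a subunit of the ATP synthase membrane part that helps to pair the enzyme into dimers. It had 8.49, 8.38 and 8.32 in MTX-treated WT arrays, against 7.68, 7.68 and 7.80 in untreated WT arrays. The groups are apart, and Atp5l rose by 0.68 ± 0.10 (limma adjusted p = 0.0491). That call is at the threshold: it was lost without 10 of the 12 arrays in turn and under 9 other settings, with adjusted p-values from 0.0523 to 0.27.

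At an unadjusted p under 0.05, 27 of the 88 genes were higher and 1 was lower in MTX-treated than in untreated WT mice, against 6.72% and 4.96% of all genes. The 1 lower was Cox8b. The 3 treated WT arrays lay above the 3 untreated WT arrays in 45 of the 88 genes and in 43 of the 73 common subunits, against 13.5% of all genes. The median log2 change of the common subunits was 0.22, and over all genes it was 0.00. By complex it was 0.25 for I, 0.19 for II, 0.18 for III, 0.18 for IV and 0.23 for V. Ndufb6, an accessory subunit of complex I, had 9.69, 9.91 and 9.83 in MTX-treated WT arrays, against 9.23, 9.03 and 9.38 in untreated WT arrays. Its groups do not overlap (log2 change 0.60 ± 0.13), but the adjusted p was 0.145. With array weights, which count less consistent arrays less, 28 of the 88 genes were called higher in WT mice, Atp5l among them, and calls over all genes also grew, to 4.96% higher and 4.71% lower. Of the 12 enterocyte genes none was called in WT mice. Of 8 immune genes 1 was called lower and 5 were lower at an unadjusted p under 0.05, and the array means of the list were 6.12 to 6.59 in MTX-treated WT mice and 6.81 to 7.11 in untreated WT mice, without overlap. Of 8 adipocyte genes all had log2 changes below 0 and none was called. The part of these cell types in the WT values was not tested.

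**Figure D4:**
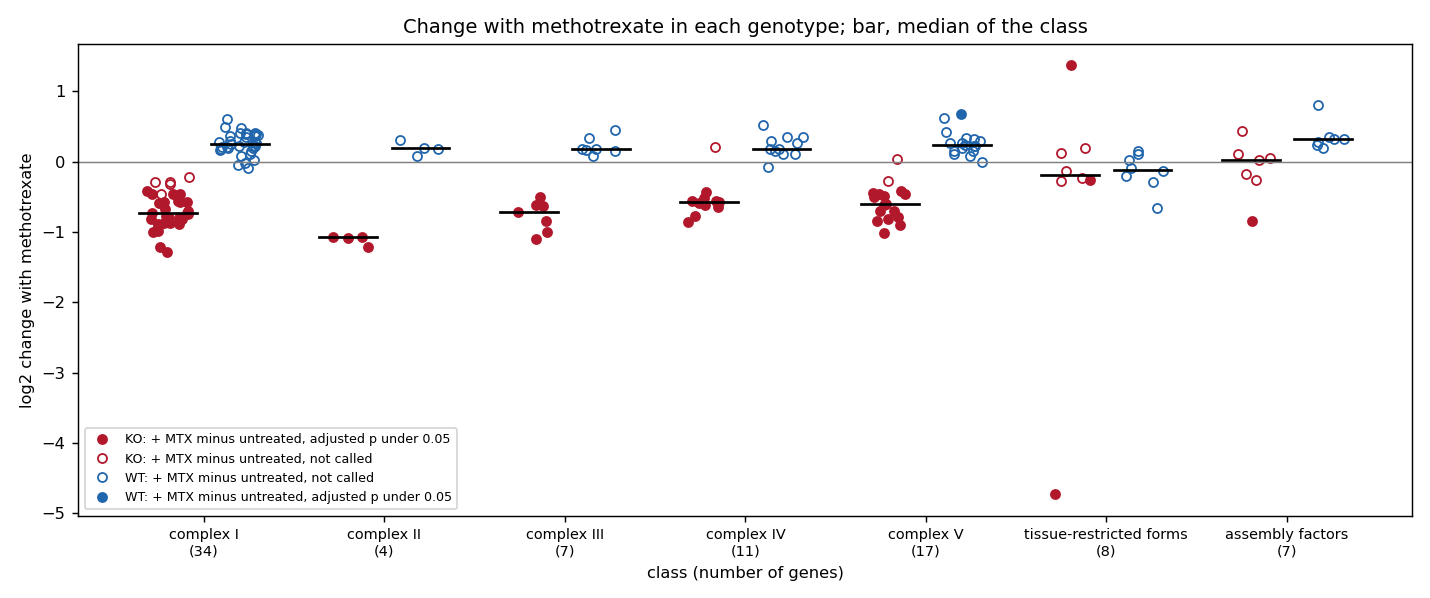
Log2 change with MTX of each gene (points) in KO mice (red) and WT mice (blue) by class, with the class median as a bar; filled points passed the test. The medians of the 5 complexes lie between -1.08 and -0.58 in KO mice and between 0.18 and 0.25 in WT mice.

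After MTX, KO mice were lower than WT mice for nearly all common subunits. Of the 88 genes, 75 were lower and 2 higher in KO mice, and over all genes 16.8% were lower and 20.2% higher. Among the common subunits 72 of 73 were lower, all but Atp5g2, with a median of -0.91. The 3 treated KO arrays lay below the 3 treated WT arrays in 76 of the 88 genes and in 72 of the 73, against 22.0% of all genes. Complex II had the largest median difference, -1.48, and the others were -0.90 for I, -1.02 for III, -0.85 for IV and -0.89 for V. For Sdhb the log2 difference was -1.57 ± 0.11 (limma adjusted p = 6.52e-07). Cox7a1 had a difference of -4.90 ± 0.20 (limma adjusted p = 2.08e-08). This comparison shares the treated KO arrays with the one above.

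The 2 genes higher in KO mice were Cox6b2 (1.53 ± 0.23, limma adjusted p = 0.000267) and Ndufa4l2, a paralogue of Ndufa4 known to be induced by low oxygen. Ndufa4l2 had 3.90, 4.03 and 4.12 in MTX-treated KO arrays, against 3.42, 3.37 and 3.69 in MTX-treated WT arrays. It was higher in all 3 (0.52 ± 0.16, limma adjusted p = 0.0205), but the call was lost without replicate 2 or 3 of the treated KO mice and without replicate 1 or 2 of the treated WT mice (adjusted p up to 0.071). Cox7a2l differed by -0.43 ± 0.15 (limma adjusted p = 0.0466), a call lost in 13 settings with adjusted p-values up to 0.188. The assembly factors Ndufaf3 and Ndufaf1 were lower in KO mice, with log2 differences of -1.06 ± 0.19 and -0.54 ± 0.18 (limma adjusted p = 0.000913 and 0.0354). The call of Ndufaf1 was lost in 7 settings (adjusted p up to 0.119). After quantile normalisation 7 of the 77 calls between treated genotypes were lost. Among them were those of Ndufc2 (-0.53 ± 0.13, limma adjusted p = 0.00707) and Uqcrq (-0.54 ± 0.11).

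Without MTX no difference between the genotypes passed the test. Of the 88 genes, 0 passed limma's test, against 0.0106% of all genes, with a smallest adjusted p of 0.786. At an unadjusted p under 0.05, 1 was higher and 2 lower in untreated KO mice, against 6.19% of all genes in either direction. They were Ndufs8, an iron-sulfur subunit of complex I, which was higher, and Sdhb and Cox7a2, which were lower. Sdhb had 9.90, 9.95 and 10.05 in untreated KO arrays, against 10.32, 10.15 and 10.24 in untreated WT arrays. Those arrays do not overlap, and the log2 difference was -0.27.

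The change with MTX itself differed between genotypes for most of these genes. The interaction, the log2 change in KO mice minus that in WT mice, was called lower for 68 of the 88 genes and higher for 1, against 12% and 11.8% of all genes. Among the common subunits it was called lower for 66 of 73, with a median of -0.95. The gene called higher was Cox6b2. Atp5g2 (-0.11 ± 0.12, limma adjusted p = 0.579) and Cox7a2l (-0.14 ± 0.22, limma adjusted p = 0.722) did not pass, and of the assembly factors only Ndufaf3 did. Within the 5 arrays without pancreatic RNA 27 of the 88 genes were called lower, against 10.5% of all genes in that fit.

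Genes that work beside the complexes were read from 6 lists. For subunits encoded in mitochondrial DNA, symbols starting with mt-Nd, mt-Co, mt-Atp or mt-Cyt were searched, and no measured gene had one. Other symbols for those subunits were not searched. Of 17 genes of electron carriers and ubiquinone synthesis, 13 fell and none rose in MTX-treated KO mice, with a median of -0.64. Over all genes, 16% were called lower and 18.8% higher in that comparison. Etfdh, which passes electrons from fatty acid oxidation to ubiquinone, had 7.92, 7.74 and 7.86 in MTX-treated KO arrays, against 8.86, 8.80 and 8.75 in untreated KO arrays. It fell by 0.96 ± 0.09, and Coq4 and Coq9 of ubiquinone synthesis fell by 1.73 ± 0.17 and 0.96 ± 0.11. In WT mice this list had a median of 0.35 and no call.

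Of 14 citric acid cycle genes, 11 fell and none rose in MTX-treated KO mice, against 16% and 18.8% of all genes. Their median was -0.75. Ogdh, of the oxoglutarate dehydrogenase complex, fell by 1.53 ± 0.11, Sucla2, a subunit of succinyl-CoA synthetase, by 1.30 ± 0.12 and Mdh2, malate dehydrogenase, by 1.02 ± 0.09. Compared with treated WT mice, all 14 were lower in treated KO mice, against 16.8% of all genes. Of 35 assembly factors outside the symbols above, 16 fell and 2 rose in KO mice (median -0.40), against 16% and 18.8% of all genes. Of the 35, those with the smallest p were Cox19 (-0.88 ± 0.11), Cox11 (-0.89 ± 0.14) and Cox16 (-1.48 ± 0.23), all factors of complex IV.

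Of 8 carrier and membrane transport genes, 4 fell and 1 rose in MTX-treated KO mice, against 16% and 18.8% of all genes. Ckmt1, the mitochondrial creatine kinase, fell by 1.99 ± 0.14 and Atpif1, an inhibitor of the ATP synthase, by 0.88 ± 0.12. Slc25a4, the adenine nucleotide carrier of heart and muscle, had 8.77, 8.63 and 8.38 in MTX-treated KO arrays, against 7.09, 6.86 and 6.61 in untreated KO arrays. It was higher in all 3 and rose by 1.74 ± 0.21 (limma adjusted p = 5.62e-05). Of 74 mitochondrial ribosome genes, 10 fell and 5 rose in KO mice, against 16% and 18.8% of all genes. The median of this list was -0.13. In WT mice all 74 had log2 changes above 0 (median 0.28) and none was called by limma. At an unadjusted p under 0.05, 20 of the 74 were higher in WT mice, against 6.72% of all genes. In KO mice those with the smallest p were Mrps36 (-0.92), Mrpl14 (-1.18) and Mrpl34 (-0.69).

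Of 17 regulators of mitochondrial genes, 6 fell and 2 rose in MTX-treated KO mice, against 16% and 18.8% of all genes. Ppargc1a, the coactivator PGC-1alpha, had 6.04, 6.20 and 6.19 in MTX-treated KO arrays, against 9.38, 8.98 and 8.85 in untreated KO arrays. The arrays are far apart, and it fell by 2.93 ± 0.21 (limma adjusted p = 9.9e-07). Ppara, the nuclear receptor that turns on fatty acid oxidation, fell by 2.90 ± 0.20 and Esrrg, an estrogen-related receptor, by 2.07 ± 0.15. For comparison, and chosen after its values were seen, Esrra fell by 1.80 ± 0.20. Nrf1 and Tfam, also chosen after their values were seen, had log2 changes of 0.16 ± 0.16 and -0.27 ± 0.24 and did not pass the test.

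**Figure D5:**
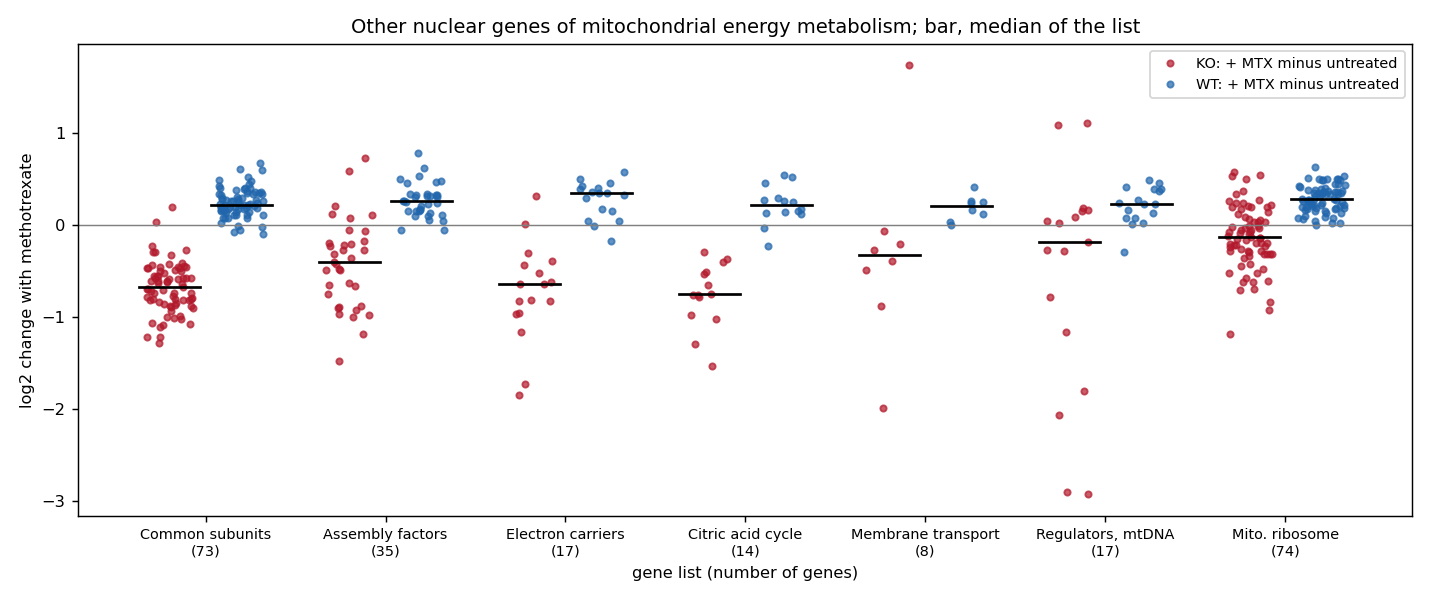
Log2 change with MTX in KO mice (red) and WT mice (blue) for the 73 common subunits and 6 lists of other nuclear genes of mitochondrial energy metabolism; points are genes and bars list medians. In KO mice the median is -0.67 for the common subunits, -0.75 for the citric acid cycle and -0.13 for the mitochondrial ribosome.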

How the data were processed

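Gene expression was measured on 12 arrays from 4 groups of 3 mice. The deposited values are log2 signals, 1 per probe set, which the authors made with RMA (background correction, normalisation between arrays and summarising of probes), per the submitters' processing notes. No version is given. The sources used here name no build for the array design. Signals were used unchanged. They cover 35556 probe sets, of which 21218 are annotated to 1 gene symbol, and the brightest probe set of each gene gave 18820 genes. Arrays give no read depth, and their number limits the precision. Probe sets may also read near-identical copies of a gene, which was not tested.

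All 12 arrays were fitted together with lmFit and eBayes of limma 3.58.1 under R 4.3.3, 1 mean for each group, on 8 residual degrees of freedom. P-values were adjusted by Benjamini-Hochberg over all genes, and the words rise and fall are kept for an adjusted p under 0.05. Values after ± are limma's standard errors. The fit was tested on simulated data. The genes, lists and naming rule were chosen with earlier results of these data known, and the motif letters after the files were seen. Named are, per class, the 3 largest falls and the 2 smallest changes in KO mice, genes called against their class, the 5 smallest p-values of each other comparison, all tissue-restricted forms, 14 fixed genes, and 3 genes per list. Lists are described by counts and medians, with no set test.

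Alternatives were quantile normalisation, median centring, no dim genes (mean signal under the 25th percentile), averaged probe sets, all probe sets, array weights, a robust trended variance, pancreatic RNA as a covariate, fits of the compared groups alone, a replicate block, a minimum log2 change of 0.5, and leaving out each array. Fits within the 7 and the 5 arrays with and without pancreatic RNA were added after seeing the data. The labels number the replicates of each group without saying what a number shares. Deviations from the group means of same-numbered arrays correlated at 0.502, 0.289 and 0.432 between MTX-treated and untreated KO mice, and at 0.671, 0.495 and 0.5 between untreated KO and WT mice. In both, arrays numbered 1 lack pancreatic RNA and the others hold it. Between MTX-treated and untreated WT mice the values were 0.289, 0.525 and -0.486, and between MTX-treated KO and WT mice 0.123, 0.255 and -0.153.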

Additional observations from a re-analysis of the deposited data

Results flagged for a closer look

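The MTX effect differed between KO and WT mice, by the test of the interaction itself (limma, adjusted p under 0.05), for 68 of the 88 genes in the direction of a more negative change in KO mice and for 1, Cox6b2, in the other direction. Each value here is the log2 change in KO mice minus that in WT mice.

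In complex I the interaction was -1.56 for Ndufc1, -1.41 for Ndufs6, -1.17 for Ndufa2, -1.10 for Ndufs1, -1.06 for Ndufv1 and -1.02 for Ndufs8. It was -0.95 for Ndufa10, -0.89 for Ndufb6 and -0.78 for Ndufa8. The 4 genes of complex II had -1.39 (Sdhd), -1.30 (Sdhb), -1.26 (Sdha) and -1.26 (Sdhc).

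In complex III it was -1.46 for Uqcr11, -1.27 for Uqcrfs1, -0.99 for Uqcrc1, -0.95 for Uqcr10 and -0.58 for Uqcrq. In complex IV it was -1.04 for Cox5a, -0.97 for Cox6a1, -0.96 for Cox5b, -0.87 for Cox8a, -0.82 for Cox4i1 and -0.54 for Cox6c.

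In complex V it was -1.25 for Atp5e, -1.17 for Atp5j2, -1.15 for Atp5g3 and -1.04 for Atp5o. Atp5l had -0.95, Atp5g1 -0.82, Atp5a1 -0.61 and Atp5b -0.53. Outside the common subunits it was -4.87 for Cox7a1, 1.35 for Cox6b2 and -1.08 for Ndufaf3.

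After quantile normalisation 12 of the 69 interaction calls were lost. Among them were those for Atp5a1, Atp5b, Cox6c and Uqcrq, with limma adjusted p-values of 0.148, 0.203, 0.136 and 0.169. The call for Uqcrq was also lost without replicate 2 of the untreated KO mice, replicate 2 of the treated KO mice or replicate 1 of the treated WT mice (adjusted p = 0.0516, 0.0513 and 0.0526).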

How the results depend on the processing

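With 3 arrays per group, small changes stay below detection, and the call of the dim gene Cox7b2 was lost in 5 settings. Of the 69 calls in KO mice 46 held under each planned setting other than the minimum change, as did 67 of 77 between treated genotypes and 55 of 69 interactions. The number of calls lower in KO mice ran from 54 to 73 under those settings. After quantile normalisation 2 genes, not 1, were called higher in KO mice. The 1 call higher in WT mice became 0 with quantile normalisation, median centring, dim genes left out, the mean of probe sets, all probe sets, only the groups compared, trended variance, the pancreatic covariate, and within the 7 and the 5 arrays. It became 28 with array weights, where 4.96% of all genes were called higher, and ranged from 0 to 3 with 1 array left out, with 3 without replicate 1 of the treated KO mice. Calls higher in treated KO than in treated WT mice ranged from 1 to 2 with 1 array left out. With the replicate number as a block, calls lower and higher were 67 and 1 in KO mice, 0 and 0 in WT mice, 74 and 2 between treated genotypes, 0 and 0 between untreated genotypes, and 68 and 1 for the interaction.

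Within the 5 arrays without pancreatic RNA, 26 genes were called lower in KO mice and 27 for the interaction, against 12.3% and 10.5% of all genes. There the KO change of Ndufa5, an accessory subunit of complex I, was 0.0945 (adjusted p = 0.816), against -0.81 over all arrays. The difference of Ndufaf4 between treated KO and WT mice was 0.63 (adjusted p = 0.0289), against -0.02. Those fits have 1 residual degree of freedom, and the cause was not tested.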

Other observations

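Some subunits, Uqcrc2, Ndufa13 and Cox7c among them, are read on this array only by probe sets annotated to several genes and so stand outside the 88. These names were chosen after their values were seen, and p-values here are adjusted over all probe sets. Uqcrc2 and Ndufa13 have 2 such probe sets each, a bright and a dim one. The bright probe set shared by Uqcrc2, a core protein of complex III, and Pdzd9 averaged 10.54 in MTX-treated KO mice and 11.19 in untreated KO mice, a log2 change of -0.66 (limma adjusted p = 0.000837). The bright one shared by Ndufa13 of complex I and Tssk6 averaged 7.92 in MTX-treated KO mice and 8.68 in untreated KO mice (-0.76, limma adjusted p = 0.00133). The dim ones averaged 2.80 and 2.90 in MTX-treated KO mice, against 2.90 and 3.09 in untreated KO mice, and did not pass the test (-0.10 for Uqcrc2 and -0.19 for Ndufa13, limma adjusted p = 0.566 and 0.409). The 3 probe sets shared by Cox7c of complex IV and Gm10012 had log2 changes of -0.18 to -0.13 in KO mice and did not pass the test (adjusted p of 0.229 to 0.344). Between treated KO and treated WT mice their log2 differences were -0.294, -0.321 and -0.315 (limma adjusted p = 0.0530, 0.0334 and 0.0201).

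Myc and Pprc1, a relative of PGC-1alpha, were the 2 regulators that rose in MTX-treated KO mice, by 1.11 ± 0.31 and 1.09 ± 0.27 (limma adjusted p = 0.0143 and 0.0072). They were 2 of 17, and among all genes 18.8% were called higher in that comparison. Myc had 9.28, 8.36 and 8.70 in MTX-treated KO arrays, against 7.38, 7.23 and 8.39 in untreated KO arrays. Those groups overlap, since replicate 3 of the untreated KO mice is above replicate 2 of the treated ones. Pprc1 had 7.42, 6.30 and 6.64 in MTX-treated KO arrays, against 5.64, 5.82 and 5.62 in untreated KO arrays, with no overlap.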
